A study of Mus musculus with 12 samples.

Results

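Egr1 and Egr2 encode zinc finger transcription factors of the early growth response family, and they were followed here across hippocampi of mice without the transcription factors CREB and CREM and of control mice, after kainate or saline. The members were the probe sets whose platform annotation gave exactly 1 symbol, Egr1 or Egr2: 2 probe sets for Egr1, one brighter and one dimmer, and 1 for Egr2, which makes 3 of 12422 tested probe sets and 2 of 8251 named genes. The design was crossed, with 4 groups of 3 Affymetrix mouse oligonucleotide arrays: mutant kainate, mutant saline, control kainate and control saline. Kainate, an agonist of glutamate receptors that evokes seizures, was injected into the peritoneum at 20 mg/kg, and hippocampi were taken 1 hour after the injection. All animals were littermate males and females of 5 to 6 weeks, housed singly and handled for 5 days. Each array carried total RNA pooled from 3 animals, so that each group holds 9 animals and 3 independent pools serve as its replicates. Only the title of the study names the loss of both factors, and the sample labels leave out the alleles, the cells that lost them or the genotype of the controls, which limits what the mutants stand for. Values are log2 expression values made by the authors with GCRMA.

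Early growth response genes belong to the immediate early genes, which neurons transcribe within minutes of strong synaptic activity without new protein synthesis. Calcium entry and the Ras-ERK kinase cascade act on serum response factor (SRF) and its ternary complex partners at CArG boxes, and on CREB at cAMP response elements (CREs), and promoters of this class can carry both. The proteins bind GC-rich DNA and are held back by the corepressors Nab1 and Nab2. In the hippocampus Egr1 is widely used as a marker of recent neuronal activity and is needed in mice for the late phase of synaptic potentiation, while Egr2 is best known for hindbrain segmentation and for myelination by Schwann cells.

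The sequence before an Egr2 start is shown because CREB and CREM, the factors named as lost, bind CREs. The Egr2 gene lies on chromosome 10. RefSeq lists 5 Egr2 start windows (GRCm38.p6), and the one printed here, chr10:67537619-67537868 on the plus strand, ends at the base before the annotated start and was the first of those holding the most kinds of motif searched. Capitals mark the motif matches in the 250 bases, read 5′ to 3′.
Egr2: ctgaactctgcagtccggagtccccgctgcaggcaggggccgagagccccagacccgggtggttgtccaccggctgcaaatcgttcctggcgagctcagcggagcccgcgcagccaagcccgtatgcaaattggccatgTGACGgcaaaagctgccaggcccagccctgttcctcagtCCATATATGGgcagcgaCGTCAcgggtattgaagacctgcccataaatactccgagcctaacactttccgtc
The capitals hold, from left to right, the short CRE motif TGACG at 111 to 107 bases before the start, a CArG box at 72 to 63 bases before it, and TGACG on the other strand at 55 to 51 bases before it. A CArG box lay in 1.47% and TGACG in 17.8% of 32851 RefSeq windows of the same length, both strands searched. The full palindromic CRE, TGACGTCA, which contains the short motif and lay in 1.55% of windows, was not in the Egr2 windows, nor was the Egr binding motif GCGNGGGCG, which lay in 4.7%. Of the 5 Egr2 windows, 4 held a CArG box and 3 held TGACG, and those 3 overlap each other. Matches describe letters in this window and were not tested as binding sites.

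**Figure D1:**
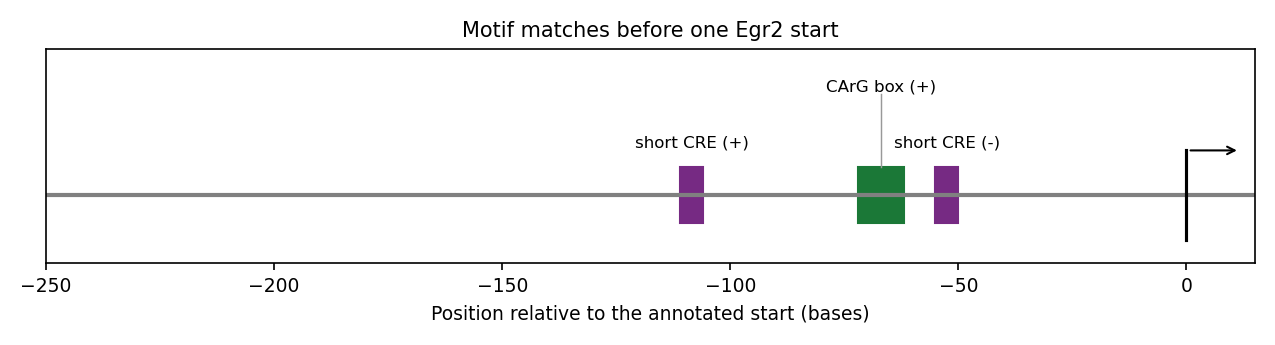
Motif matches in the 250 bases before one annotated Egr2 start, with position in bases relative to the start on the x axis and the strand of each match in brackets. The CArG box (green) lies between the 2 matches of the short CRE motif (purple).

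The arrays were first checked against their labels. Markers of neurons, 6 of which were measured, had a median level at percentile 95.7 of the probe sets, those of hippocampal granule and pyramidal neurons (8) at 85.0, interneurons (7) at 92.9, astrocytes (6) at 95.3, oligodendrocytes (7) at 94.3, microglia (9) at 82.7, endothelium and blood (6) at 63.3, choroid plexus (4) at 79.1, neighbouring striatum and thalamus (5) at 38.4 and Schwann cells at 49.5 with 2 of 4 markers measured. Kainate, averaged over genotypes, passed for 1 marker, Hba-a1, which encodes alpha globin of red cells, with a limma change of 0.53 (adjusted p = 0.0372). In that contrast 0.942% of all probe sets passed in either direction, so 1 call over all the marker lists is no result about the markers. Genotype, averaged over treatments, passed for 7 of the 9 microglial markers, all higher in mutants, for 1 astrocyte marker (higher) and for 1 hippocampal neuron marker in each direction, where 0.612% of all probe sets passed. The mean log2 level of the microglial markers was 8.14 to 8.44 in mutant kainate, 8.04 to 8.17 in mutant saline, 7.30 to 7.42 in control kainate and 7.14 to 7.22 in control saline arrays, and the part of this shift in the genotype comparisons below was not tested. No genotype difference of the targeted genes passed: averaged differences lay between -0.29 and -0.09 over 3 Creb1 and 2 Crem probe sets. Those probe sets read at percentiles 22.4 to 50.5, from low to near the middle of the range. Whether a loss could be seen at such levels was not tested, so these values do not decide whether the factors were lost. The Crem probe set with the lowest averaged difference stood at -0.51 under kainate (adjusted p = 0.0889) and -0.08 under saline (adjusted p = 1). Values were spread less on the array of control kainate replicate 3 (interquartile range 3.74) than on any of the 11 others (4.40 to 4.61). Replicate 1 arrays of all groups deviated from their group means together (correlations of 0.368 to 0.848), away from replicates 2 and 3.

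Egr2 was the member with the larger kainate response. In the mutants it stood at 10.96, 11.11 and 10.86 (log2) on the kainate arrays, against 6.23, 6.53 and 5.89 on the saline arrays. In the controls it stood at 11.11, 11.33 and 10.95 on the kainate arrays, against 6.55, 6.42 and 6.18 on the saline arrays. Kainate and saline arrays did not overlap in either genotype, and the gap between the closest arrays was far wider than the spread within a group. The share of all probe sets without such overlap is not given here. Group means were 10.98 ± 0.12 in mutant kainate, 6.22 ± 0.32 in mutant saline, 11.13 ± 0.19 in control kainate and 6.38 ± 0.19 in control saline arrays (SD, n = 3 each).

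These levels amount to a rise of Egr2 by 4.76 (SE 0.17) in mutants, or 27.1-fold (95% confidence interval 21.0 to 35.0), and by 4.75 (SE 0.17) in controls, or 26.9-fold (20.8 to 34.7). In limma the adjusted p was 6.82e-08 in mutants and 7.02e-08 in controls, where 0.298% and 0.33% of all probe sets passed in either direction and 0.266% and 0.282% as higher. By size the rise ranked 5 of 12422 in mutants and 7 in controls. The position of Egr2 within the range of an array moved to percentile 96.9 to 97.6 on mutant kainate arrays, against 62.8 to 67.8 on mutant saline arrays, and to 97.4 to 98.1 on control kainate arrays, against 65.0 to 68.3 on control saline arrays.

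Egr1, the activity marker, rose as well, from a probe set that already read high under saline. In the mutants the brighter Egr1 probe set stood at 11.30, 11.56 and 11.42 on the kainate arrays, against 9.60, 9.92 and 9.91 on the saline arrays. In the controls it stood at 11.58, 11.47 and 11.62 on the kainate arrays, against 9.68, 10.14 and 9.95 on the saline arrays. Again no kainate array overlapped with a saline array, and the share of all probe sets for which this holds is not given here. Group means were 11.43 ± 0.13 in mutant kainate, 9.81 ± 0.18 in mutant saline, 11.56 ± 0.08 in control kainate and 9.92 ± 0.23 in control saline arrays (SD, n = 3 each).

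The rise of Egr1 was 1.62 (SE 0.13) in mutants, or 3.06-fold (95% confidence interval 2.50 to 3.75, limma adjusted p = 0.00013), and 1.63 (SE 0.13) in controls, or 3.10-fold (2.53 to 3.79, adjusted p = 0.000103). It ranked 25 of 12422 by size in mutants and 26 in controls. Its saline arrays lay at percentiles 92.3 to 93.8 in mutants and 92.7 to 94.6 in controls, and its kainate arrays at 98.1 to 98.4 in mutants and 98.4 to 98.6 in controls. The highest value in the whole table was 14.35, above both members after kainate. Whether either probe set neared an upper limit of its own was not tested.

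**Figure D2:**
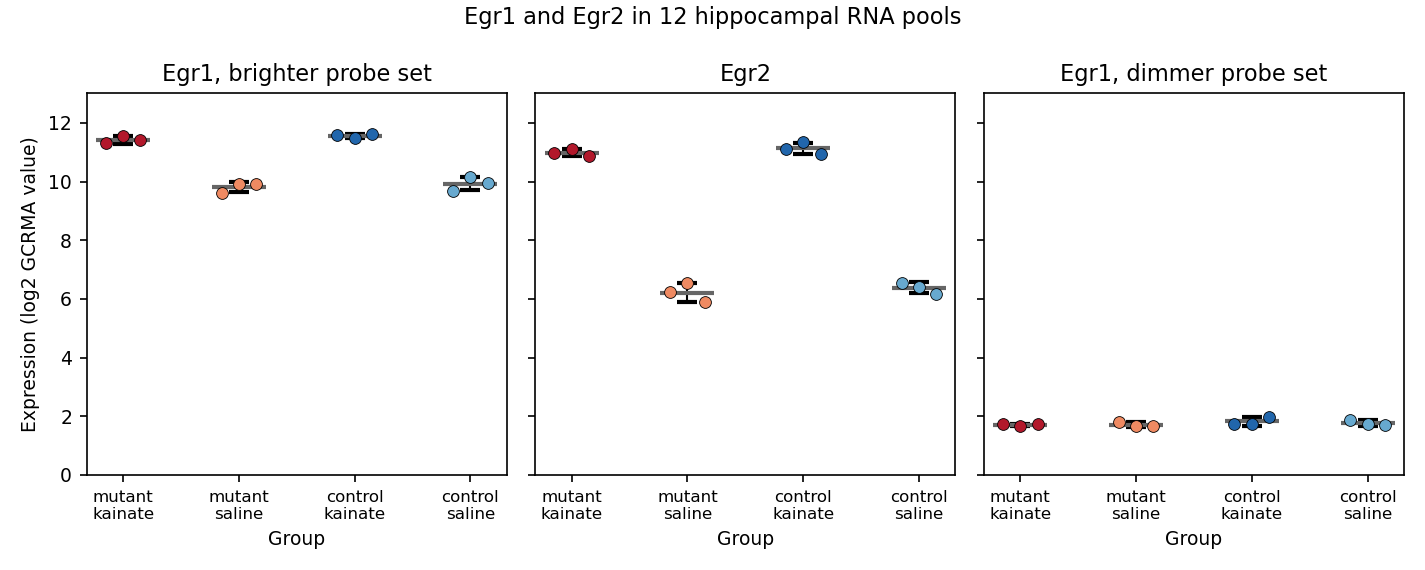
Log2 expression of the 3 Egr1 and Egr2 probe sets on the y axis in the 4 groups on the x axis, with 1 point per pool of 3 animals, grey bars at the means and black bars for the SD (n = 3). Kainate arrays lie above all saline arrays for the brighter Egr1 probe set and for Egr2 in both genotypes, while the dimmer Egr1 probe set stays between 1.67 and 1.98 on all 12 arrays.

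The probe sets of Egr1, a gene of chromosome 18, disagreed. The dimmer one read 1.73, 1.68 and 1.73 in mutant kainate, 1.80, 1.68 and 1.67 in mutant saline, 1.75, 1.73 and 1.98 in control kainate and 1.89, 1.73 and 1.69 in control saline arrays. These values lie at percentiles 5.82 to 6.57 of their arrays, near the bottom of the range. Its kainate change was 0.00 (SE 0.09, adjusted p = 1) in mutants and 0.05 (SE 0.09, adjusted p = 0.76) in controls, so that the Egr1 results rest on 1 probe set. Why the dimmer one reads low was not tested, and the probe sequences were not used here.

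Averaged over genotypes, Egr2 rose by 4.75 (SE 0.12, adjusted p = 1.88e-09) and Egr1 by 1.62 (SE 0.09, adjusted p = 3.57e-06), where 0.531% of all probe sets passed as higher. Both were higher on 6 of 6 kainate arrays than on any of 6 saline arrays, without a share of all probe sets to compare. Exact permutation of the treatment labels within genotype gave a two-sided p of 0.005 for each, the smallest that 400 arrangements allow. Within replicate numbers, kainate minus saline was 4.73, 4.58 and 4.97 for Egr2 in mutants and 4.56, 4.91 and 4.77 in controls. For Egr1 these differences were 1.70, 1.64 and 1.51 in mutants and 1.90, 1.33 and 1.67 in controls. With replicates 2 and 3 only, all 4 rises kept their calls.

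The log2 response of Egr2 exceeded that of Egr1 by 3.13 on average, by 3.14 in mutants and by 3.11 in controls. Treatment labels permuted within genotype gave an exact two-sided p of 0.005 for this difference, again the smallest possible, and the replicate-matched differences ran from 2.66 to 3.58. The comparison is between fold changes of 2 probe sets and does not order the RNA amounts of both genes. In bulk tissue a change in the number of responding cells and a change in RNA per cell cannot be told apart.

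Whether loss of CREB and CREM changed the response of either gene is asked by the interaction, the mutant response minus the control response. For Egr2 it was 0.01 (SE 0.24, 95% confidence interval -0.51 to 0.53), a mutant response of 1.01 times the control response with bounds of 0.703 and 1.45. For Egr1 it was -0.02 (SE 0.19, interval -0.43 to 0.39), or 0.988 times with bounds of 0.743 and 1.31. Neither passed in limma (adjusted p = 0.991 and 0.986, unadjusted p = 0.957 and 0.928). In this comparison 0 of 12422 probe sets passed (0%), and 107 had an unadjusted p under 0.05. The intervals leave room for a mutant response up to about the bounds given in either direction, so equal responses are not shown. The sign of both interactions changed with the array left out.

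No genotype difference in the levels of either gene passed the test. Under kainate the genotype difference (mutant minus control) was -0.15 (SE 0.17, adjusted p = 0.592) for Egr2 and -0.13 (SE 0.13, adjusted p = 0.578) for Egr1. Under saline it was -0.17 (SE 0.17, adjusted p = 1) for Egr2 and -0.11 (SE 0.13, adjusted p = 1) for Egr1. With single arrays left out the saline difference ran from -0.32 (without mutant saline replicate 2) to -0.0038 (without mutant saline replicate 3) for Egr2. For Egr1 it ran from -0.23 (without control saline replicate 1) to -0.003 (without control saline replicate 2). Under kainate the same ranges were -0.24 to -0.05 for Egr2 and -0.20 to -0.07 for Egr1. Mutant and control arrays overlapped for both genes under both treatments. Averaged over treatments the differences were -0.16 (95% confidence interval -0.42 to 0.10) for Egr2 and -0.12 (-0.33 to 0.09) for Egr1, each with adjusted p = 0.63. Background shares were 0.354% of probe sets called under kainate, 0.137% under saline and 0.612% averaged. For the dimmer Egr1 probe set, near the bottom of the range, the mutant kainate arrays lay just below the control kainate arrays. They read 1.68 to 1.7288 against 1.7349 to 1.98. The limma difference was -0.11 (SE 0.09, adjusted p = 0.531), and the share of all probe sets that separate in this way is not given here.

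The arrays of one replicate number shared part of their deviations. Replicate 3 was the lowest Egr2 array in all 4 groups, by 0.12 in mutant kainate, 0.32 in mutant saline, 0.18 in control kainate and 0.21 in control saline below the group mean. For Egr1, replicate 1 was lowest in mutant kainate (by 0.13), mutant saline (by 0.21) and control saline (by 0.24), while in control kainate it stood 0.02 above the mean. With replicate 1 modelled as a batch, the averaged Egr1 and Egr2 responses kept their calls.

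Other immediate early transcription factors give the scale of these responses. Of 24 listed, 20 were measured and 13 rose averaged over genotypes, 0 fell and 7 did not pass (median 1.02, against 0.03 over all probe sets, with 0.531% called as higher). The 6 with the smallest p were Btg2, an antiproliferative gene, at 5.00, the AP-1 gene Fos at 5.34, Ier2 at 5.97, the orphan nuclear receptor Nr4a1 at 3.71, Junb at 3.12 and Fosb at 5.80 (log2). Of the 20, each read from its brightest probe set, 4 had an averaged response above that of Egr2 and 9 above that of Egr1. The dimmer Junb probe set, not counted there, rose by 4.97 in mutants and 4.90 in controls, above Egr2 in both. In each genotype alone 9 of the 20 rose, where 0.266% of all probe sets rose in mutants and 0.282% in controls. The list was drawn up with earlier results of these data known, and its counts are no independent evidence.

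The genotype differences of these factors are shown beside those of the Egr genes. For 7 of the 20 the 95% interval of the interaction, not adjusted for the number of genes, lay to one side of 0, and none passed the adjusted threshold. The mutant response was the larger for Fos by 1.14 (0.73 to 1.55), for Nr4a1 by 0.76 (0.24 to 1.28) and for Jun by 0.36 (0.06 to 0.66). It was the smaller for Atf3, a stress-induced ATF factor (-1.80, interval -2.70 to -0.90), Nfil3, a D-box repressor (-1.48, -2.28 to -0.69), Ier2 (-1.08, -1.64 to -0.52) and Btg2 (-0.72, -1.08 to -0.35). Fos, Nr4a1, Ier2 and Btg2 were named by rule, for their small p in the averaged kainate effect on these same arrays. Jun, Atf3 and Nfil3 were named after their interaction values were seen, so none of these choices is independent of the data. The intervals of Egr2 and Egr1 included 0. Whether Egr1 or Egr2 differed in this from any other factor was not tested. Averaged over treatments, Ier2 was higher in mutants by 0.78, and Nr4a2, Nr4a1 and Fos were lower, with differences of -2.41, -0.95 and -0.59, while 16 did not pass. For Fos the difference was -0.02 under kainate (limma adjusted p = 0.946) and -1.16 under saline (adjusted p = 0.00809). For Ier2 it was 0.23 under kainate (adjusted p = 0.53) and 1.32 under saline (adjusted p = 0.0205), and for Nr4a1 -0.57 (adjusted p = 0.428) and -1.33 (adjusted p = 0.0126). The estimates for Fos, Ier2 and Nr4a1 were thus larger in size under saline, while their interactions did not pass the adjusted threshold. For Nr4a2 it was -2.89 under kainate (adjusted p = 0.00989) and -1.93 under saline (adjusted p = 0.129).

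**Figure D3:**
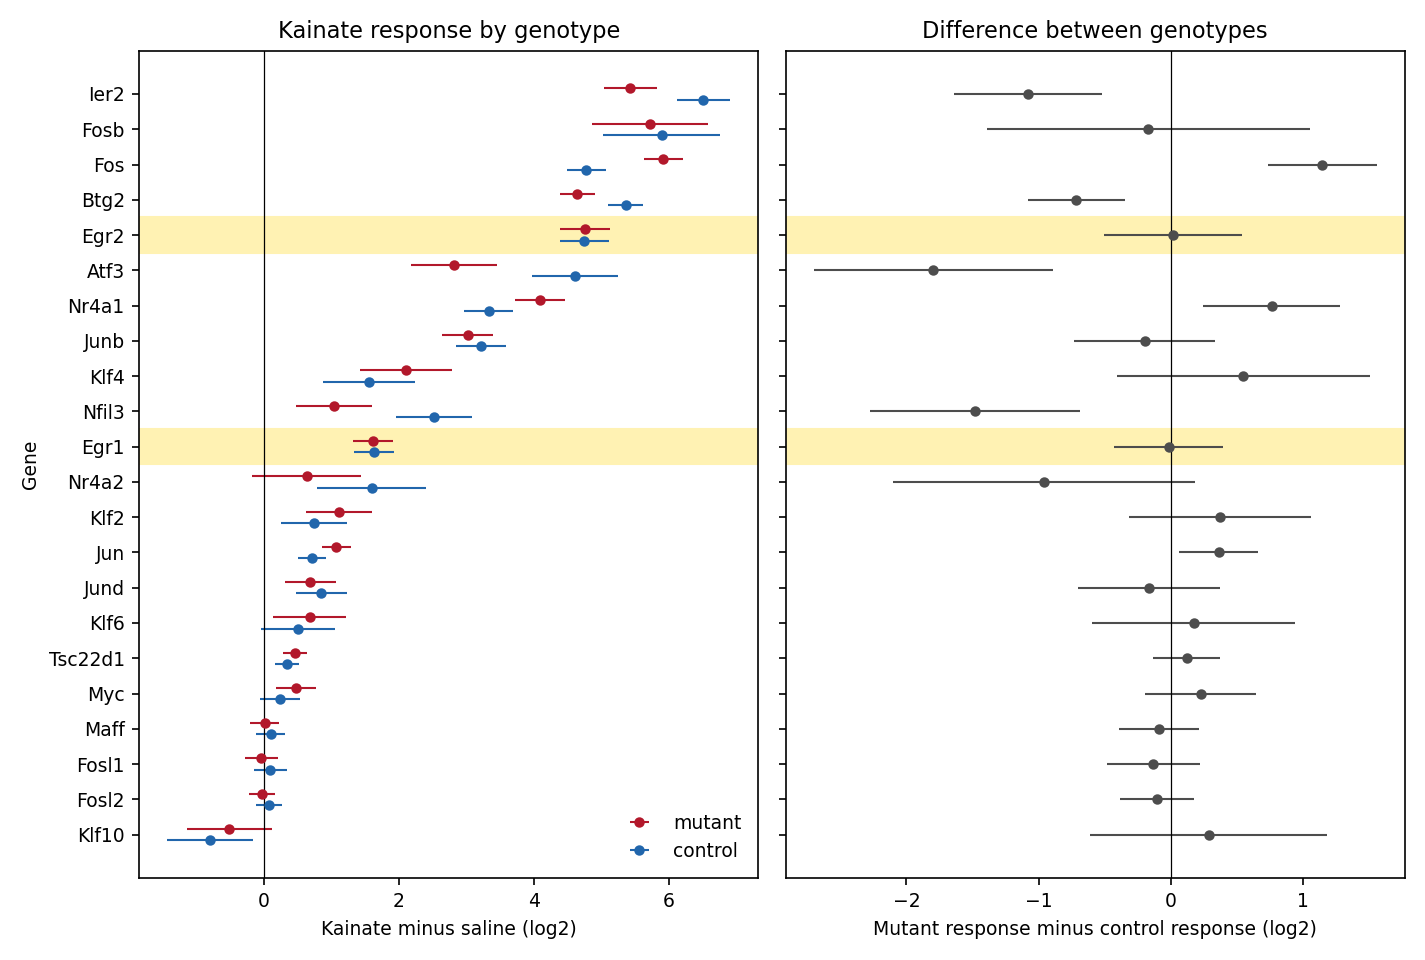
Log2 kainate response (left, mutants red, controls blue) and mutant minus control response (right) of Egr1, Egr2 (shaded) and 20 other immediate early transcription factors, ordered by averaged response, with 95% confidence intervals from limma (n = 3 arrays per group). For Egr2 and Egr1 the mutant and control points nearly coincide, at 4.76 and 4.75 and at 1.62 and 1.63.

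The genes most like each member were found by the root mean square difference, over the 12 arrays, of the log2 change from the control saline mean, among 8249 other genes. Closest to Egr1 were Errfi1, an inhibitor of the epidermal growth factor receptor (0.34), Tob1, an antiproliferative protein (0.37), Dusp6, a phosphatase of ERK (0.37), Tiparp, a poly-ADP-ribose polymerase (0.40), and Zfp36, a protein that destabilises mRNA (0.40). Their averaged kainate responses passed, with adjusted p between 6.55e-08 and 0.000793, and their rises ran from 1.09 to 2.04 in mutants and from 1.28 to 2.17 in controls. Closest to Egr2 were Junb by its dimmer probe set (0.44), Btg2 (0.50), Fos (0.53), the inducible cyclooxygenase Ptgs2 (0.54) and the phosphatase Dusp1 (0.82). Their rises ran from 3.65 to 5.92 in mutants and from 3.50 to 5.36 in controls. The distance between Egr1 and Egr2 was 2.21, larger than to any of these neighbours, which were picked for being nearest. Because the choice used these same values, the rises and calls of the neighbours are no independent evidence. In the RefSeq windows of the 5 neighbours of Egr2, TGACG was found for 4, the full CRE for 2 (Btg2 and Dusp1) and a CArG box for 0. In those of the 5 neighbours of Egr1, TGACG was found for 2, the full CRE for 1 (Errfi1) and a CArG box for 1 (Zfp36), read against 19.8%, 1.77% and 1.62% of 27025 genes. Windows were listed for 16 of the 20 other immediate early transcription factors, which include Junb, Btg2 and Fos. TGACG was found there for 12, the full CRE for 2 and a CArG box for 0, so TGACG is not particular to the neighbours of Egr2.

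**Figure D4:**
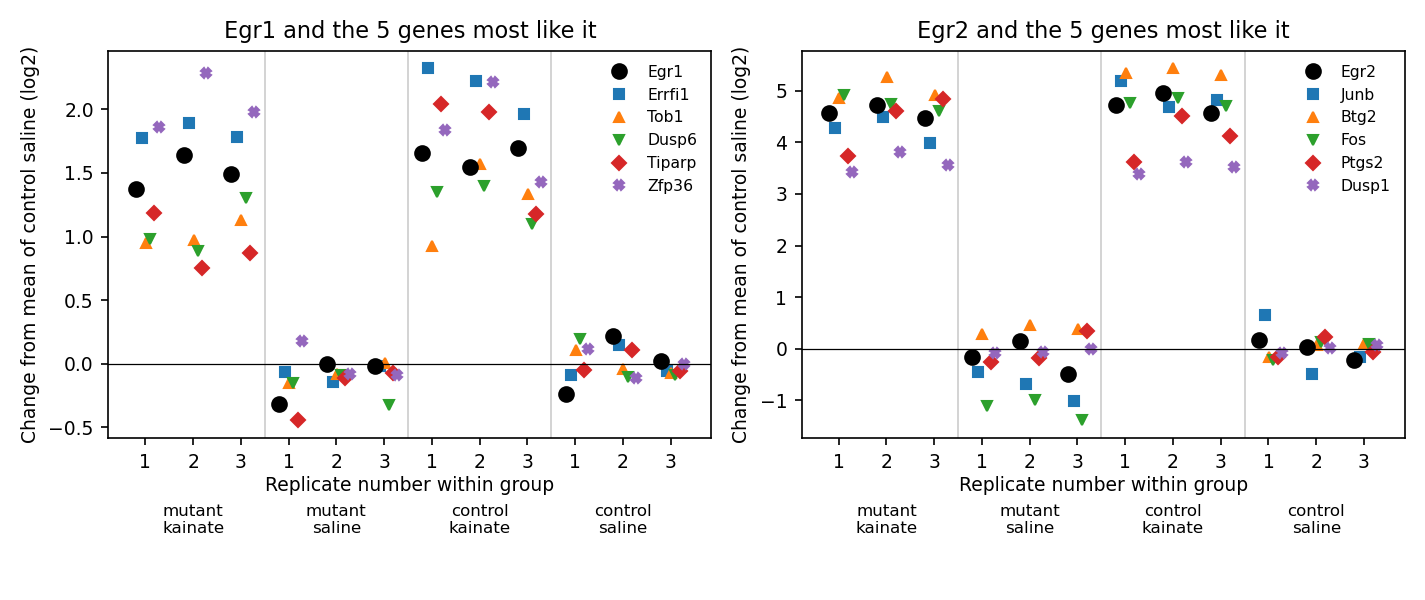
Log2 change from the mean of the control saline arrays (y axis) on each of the 12 arrays (x axis, by group and replicate) for Egr1 (left) and Egr2 (right, both black) and the 5 genes nearest to each. The neighbours of Egr1 rise by 1.09 to 2.17, and those of Egr2 by 3.50 to 5.92.

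Upstream of the Egr genes, the SRF list comprised 6 genes, of which 4 were measured, and none passed for kainate averaged over genotypes (median -0.05). The ternary complex factor Elk1 changed by -0.51 (SE 0.20, adjusted p = 0.33). With replicates 2 and 3 only, Elk1 passed as lower (-0.62, adjusted p = 0.0312). Elk3 and Elk4, of the same family, read low, at percentiles 23.9 and 19.6, and changed by 0.02 and 0.06, and the SRF cofactor gene Mrtfa by -0.12. Of 14 genes of the Ras-ERK cascade 5 were measured, and none passed (median 0.06, from -0.14 to 0.21). Of 13 feedback inhibitors of ERK 7 were measured, and 3 rose averaged over genotypes, all named as neighbours above: Dusp1 by 3.58, Errfi1 by 2.03 and Dusp6 by 1.26 (median of the list 0.07, with 0.531% of all probe sets called as higher). These are RNA levels, and the cascade acts through phosphorylation, which arrays do not measure.

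Among the corepressors, Nab2, itself a known Egr target, read 7.94, 8.07 and 8.14 in mutant kainate, 7.68, 7.68 and 7.91 in mutant saline, 7.84, 7.49 and 7.22 in control kainate and 7.36, 7.44 and 7.24 in control saline arrays. The mutant arrays lay above the control arrays under both treatments, and the share of all probe sets that separate in this way is not given here. The averaged genotype difference was 0.47 (SE 0.10, adjusted p = 0.0899), short of the threshold, and it passed at 0.55 (adjusted p = 0.0164) once control kainate replicate 1 was left out and at 0.38 (adjusted p = 0.0194) with array weights (0.0164 to 0.252 over the alternatives). The kainate change of Nab2 averaged 0.23 (adjusted p = 0.391).

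Nab1 read 6.69, 6.80 and 6.58 in mutant kainate, 6.45, 6.18 and 6.28 in mutant saline, 6.49, 6.93 and 5.16 in control kainate and 6.48, 6.42 and 6.36 in control saline arrays. The value of 5.16 came from the control kainate replicate 3 array and stood apart. The kainate change was 0.39 in mutants (adjusted p = 1) and -0.23 in controls (adjusted p = 0.749), and the change in controls was 0.29 without that array. Egr3 and Egr4, the other members of the family, were not analysed here.

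Candidate targets of the Egr proteins, taken from textbook knowledge, did not pass at 1 hour, which is near the share of all probe sets called. These counts are therefore no result about the targets. Several candidates also read low, such as Th, Psmb9 and Pdgfb at percentiles 13.9, 18.9 and 21.0, and Hoxa2 and Gjb1 at 15.8 and 24.9. Of 25 candidate Egr1 targets 20 were measured and 0 passed for kainate averaged over genotypes in limma (median 0.04, from -0.88 to 0.44, with 0.942% of all probe sets called). The extremes, chosen after their values were seen, were Cdk5r1, the activator of the neuronal kinase Cdk5, at -0.88 (adjusted p = 0.0814) and F3, tissue factor, at 0.44 (adjusted p = 0.12). Cdk5r1 read 5.28, 4.85 and 4.73 in mutant kainate, 5.63, 5.74 and 5.93 in mutant saline, 6.03, 5.07 and 4.73 in control kainate and 6.31, 5.98 and 6.38 in control saline arrays. Its arrays overlapped in controls, where replicate 1 was high after kainate, and without that array the averaged change passed in limma (-1.07, adjusted p = 0.00308). It also passed with replicates 2 and 3 only (-1.16, adjusted p = 0.00622). On all 12 arrays it passed with the replicate block (-0.88, adjusted p = 0.0428), with replicate 1 as a batch (-0.88, adjusted p = 0.0288) and with array weights (-0.71, adjusted p = 0.0115), and over the alternatives the adjusted p ran from 0.00308 to 0.221. Of 10 candidate Egr2 targets of myelin and hindbrain 7 were measured and 0 passed (median 0.04, from -0.52 to 0.15, with 0.942% of all probe sets called). The lowest was the receptor gene Epha4 and the highest the myelin gene Mbp. Neither list had a member past the threshold in a genotype contrast, where at most 0.612% of all probe sets passed.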

How the data were processed

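Gene expression in mouse hippocampus was measured on 12 Affymetrix arrays. The deposited values are log2 expression values, which the authors made with GCRMA in R 2.4.1, per the submitters' processing notes. No probe-level intensities were used here. Of 12488 probe sets 66 controls were left out, and of 12422 tested 10833 had 1 symbol, 396 several and 1193 none. Of those with 1 symbol 10817 were matched to RefSeq. Without further normalization or filter, limma 3.58.1 (R 4.3.3) fitted the 4 group means over all arrays with empirical Bayes variances, and p-values were Benjamini-Hochberg adjusted over all probe sets (threshold 0.05). Genes with several probe sets were read from the brightest. The 7 contrasts were computed from that fit, so that they share arrays and one estimate of the spread. The steps were tested on simulated data.

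The members and all gene lists were chosen with earlier results of these data known. Named were the Egr1 and Egr2 probe sets, all genes of the Egr, Nab and SRF lists, at most the 6 genes with the smallest p in each direction of other lists, the 5 genes most like each member, and Creb1 and Crem. P-values measure the spread between pools of animals. The number of arrays limits the precision. Same-numbered arrays correlated in their deviations from group means at 0.368 to 0.848 (replicate 1), 0.302 to 0.583 (replicate 2) and -0.01 to 0.621 (replicate 3). The numbers were not taken as pairs in the main fit, because the labels do not say what a replicate number shares. Alternatives were other normalizations, filters, variance models, array weights, blocks and left-out arrays. The exact permutation test of the single-gene rises was added after seeing the data.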

Additional observations from a re-analysis of the deposited data

Results flagged for a closer look

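Braf, a kinase of the Ras-ERK list, differed between treatments in opposite directions in the genotypes, without overlap, and neither difference passed. The share of all probe sets with this pattern is not given here. Braf read 4.23, 4.18 and 4.23 in mutant kainate, 4.25, 4.298 and 4.295 in mutant saline, 4.27, 4.203 and 4.71 in control kainate and 4.14, 4.199 and 4.19 in control saline arrays. Kainate minus saline was -0.07 in mutants (limma adjusted p = 1) and 0.22 in controls (adjusted p = 0.729). The mutant minus control response was -0.28 and did not pass in limma (adjusted p = 0.939). The highest value, 4.71, came from the control kainate replicate 3 array, without which the control difference was 0.06 and the mutant minus control response -0.13.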

How the results depend on the processing

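Of 290 alternative values for 14 Egr1 and Egr2 results, 274 kept direction and side of the threshold, and the kainate rises of Egr2 and of the brighter Egr1 probe set passed under every alternative run. Over the alternatives Egr2 rose by 4.59 to 4.92 in mutants and 4.64 to 4.84 in controls, and Egr1 by 1.51 to 1.68 and 1.43 to 1.74. No Egr1 or Egr2 call changed with the replicate block. Signs turned only for values that never passed, and the cause was not tested. The Egr2 interaction was -0.0322 after quantile normalization, -0.2342 with array weights, -0.0679 with replicates 2 and 3 only, and -0.1493 to 0.1697 with single arrays left out. The Egr1 interaction was 0.0637 on median-centred arrays, 0.0934 with array weights, 0.0744 with replicates 2 and 3 only, and -0.1254 to 0.1027 with arrays left out. For the dimmer Egr1 probe set the kainate effect in mutants was 0.0443 centred, 0.0352 weighted, 0.0303 with replicates 2 and 3 only, and -0.0272 to 0.0386 with arrays left out. In controls it was -0.0156 quantile-normalized and -0.0262 to 0.1136 with arrays left out, and averaged it was -0.0133 and -0.0148 to 0.0551. Its interaction was 0.0045 quantile-normalized, 0.0235 centred, 0.0173 weighted and -0.117 to 0.0227 with arrays left out, and its genotype effect under saline -0.0943 to 0.0074. The Egr2 minus Egr1 response was 3.2708 with replicates 2 and 3 only, where the exact p of 0.0556 is the smallest that 36 permutations allow.

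Of 147 list counts for the averaged kainate effect, 136 stayed within 1.5 times. With array weights, fitted gene by gene because the default method did not converge, both Nab genes (2), 2 Ras-ERK genes, 5 candidate Egr1 targets and 3 candidate Egr2 targets passed, against 0 in each of these lists. With replicates 2 and 3 only, 1 SRF list gene, 2 candidate Egr1 targets and 1 candidate Egr2 target passed. Candidate Egr1 targets that passed numbered 1 (Cdk5r1) with the replicate block, 2 with replicate 1 as a batch, and 0 to 1 with arrays left out, where 1 passed without control kainate replicate 1 and 1 without mutant saline replicate 1. Over all probe sets the averaged kainate effect was called for 66 higher and 51 lower, for 51 and 11 on median-centred arrays, 109 and 136 with the replicate block, 136 and 197 with replicate 1 as a batch, 850 and 1186 with array weights, and 199 and 579 with replicates 2 and 3 only. With single arrays left out the lowest count was 52, without control saline replicate 3 and also without mutant saline replicate 3, and the highest 284, without control kainate replicate 1.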
